A study of Mus musculus with 6 samples.

Results

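Expression of 10 genes was followed in RNA-seq of mouse RPE-choroid. They belong to or signal for 2 receptor families, the Fc gamma receptors and the C-type lectins that signal through immunoreceptor tyrosine motifs. They were taken by name, with no threshold on their values but with earlier results of these data known. They are the receptor genes Fcgr1, Fcgr3, Fcgr4, Fcgr2b, Clec7a, Clec4n, Clec4a2 and Clec12a, the adaptor gene Fcer1g and the kinase gene Syk. All 10 genes are among the 15663 genes listed in each of the 6 libraries, and all 10 passed the filter on low counts, as did 13454 genes in all. RPE-choroid holds the retinal pigment epithelium (RPE), a pigmented sheet of cells that serves the photoreceptors, and the vessel-rich choroid on which it rests. The 6 libraries came from 3 control mice and 3 mice with subretinal fibrosis (SRF). All were males, supplied at 8 to 10 weeks of age, of strain C57BL/6 by the labels and C57BL/6J by the methods. The methods do not give the age at tissue collection. SRF mice received 4 laser burns in each eye, with a second burn to every lesion after 10 days, and RNA was taken 20 days after that second laser. Control mice were untreated, so the groups differ in the laser injury as well as in the scar that followed it. The whole RPE-choroid was extracted, of which the lesions are a part.

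Fc gamma receptors bind the constant part of IgG on cells or particles that antibody has coated. The activating receptors carry no signalling motif of their own and rely on the FcR gamma chain, encoded by Fcer1g, whose ITAM (immunoreceptor tyrosine-based activation motif) recruits the kinase Syk once its tyrosines are phosphorylated. Fcgr2b instead carries an ITIM, the inhibitory counterpart, which recruits the phosphatase SHIP1. Among the C-type lectins, Dectin-1 (Clec7a) binds beta-glucan and signals through a single-tyrosine hemITAM, Dectin-2 (Clec4n) binds mannose-rich glycans and borrows the FcR gamma chain, and DCIR (Clec4a2) and Clec12a are inhibitory. In the eye these genes are best known from microglia, macrophages and other myeloid cells.

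Counts on listed genes summed to between 13667310 and 24356023 in the 6 libraries. The 16 RPE marker genes were high in every library, as the tissue label would have it, with a mean log2 CPM (TMM-normalised counts scaled to a common library size) of 9.81 to 9.93 in controls and 9.47 to 9.68 in SRF. Control 1 and SRF 3 stood apart in photoreceptor RNA, with a mean log2 CPM over 20 rod and cone genes of 8.01 and 8.03 against 4.0 to 5.24 in the other 4 libraries. These libraries lie in opposite groups, and results are also given without both of them.

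All 10 genes had a higher estimate in SRF than in control, where 50.3% of all tested genes did, and their median log2 fold change was 0.63 against 0.00 over all tested genes. Clec7a, with a fold of 2.74, and Fcer1g, with a fold of 1.69, had the smallest p-values of the 10. In 7 of the 10 genes every SRF mouse was above every control mouse, which was so for 6.71% of all tested genes, and in none was the order the opposite, which was so for 6.43%. The same 7 genes did not overlap in FPKM, against 8.76% of all tested genes. In bulk tissue, more cells carrying these receptors and more RNA per cell cannot be told apart. After Benjamini-Hochberg adjustment edgeR's quasi-likelihood test called 0 of the 10 genes (adjusted p under 0.05, log2 fold change of 0.5 or more either way), but it called 0% of the whole table. At an unadjusted p under 0.05, 7 of the 10 were higher and 0 lower in edgeR, against 4.16% of all tested genes higher and 2.85% lower. DESeq2, run on the same counts and thresholds, called 2 of the 10, Clec7a and Fcer1g, both higher, beside 1.14% of all tested genes in either direction and 0.803% higher. Both also stand in a gene list that the study made on these counts, so the calls are not independent of it. For Clec7a the paper also reports that qRT-PCR of RPE-choroid bore out the rise, and Fcer1g was not among the genes it tested that way. All p-values measure the spread between 3 mice a group. The 10 genes and the lists read below were chosen with earlier results of these data known. Their excess over the share of all tested genes is therefore a description and no test.

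**Figure D1:**
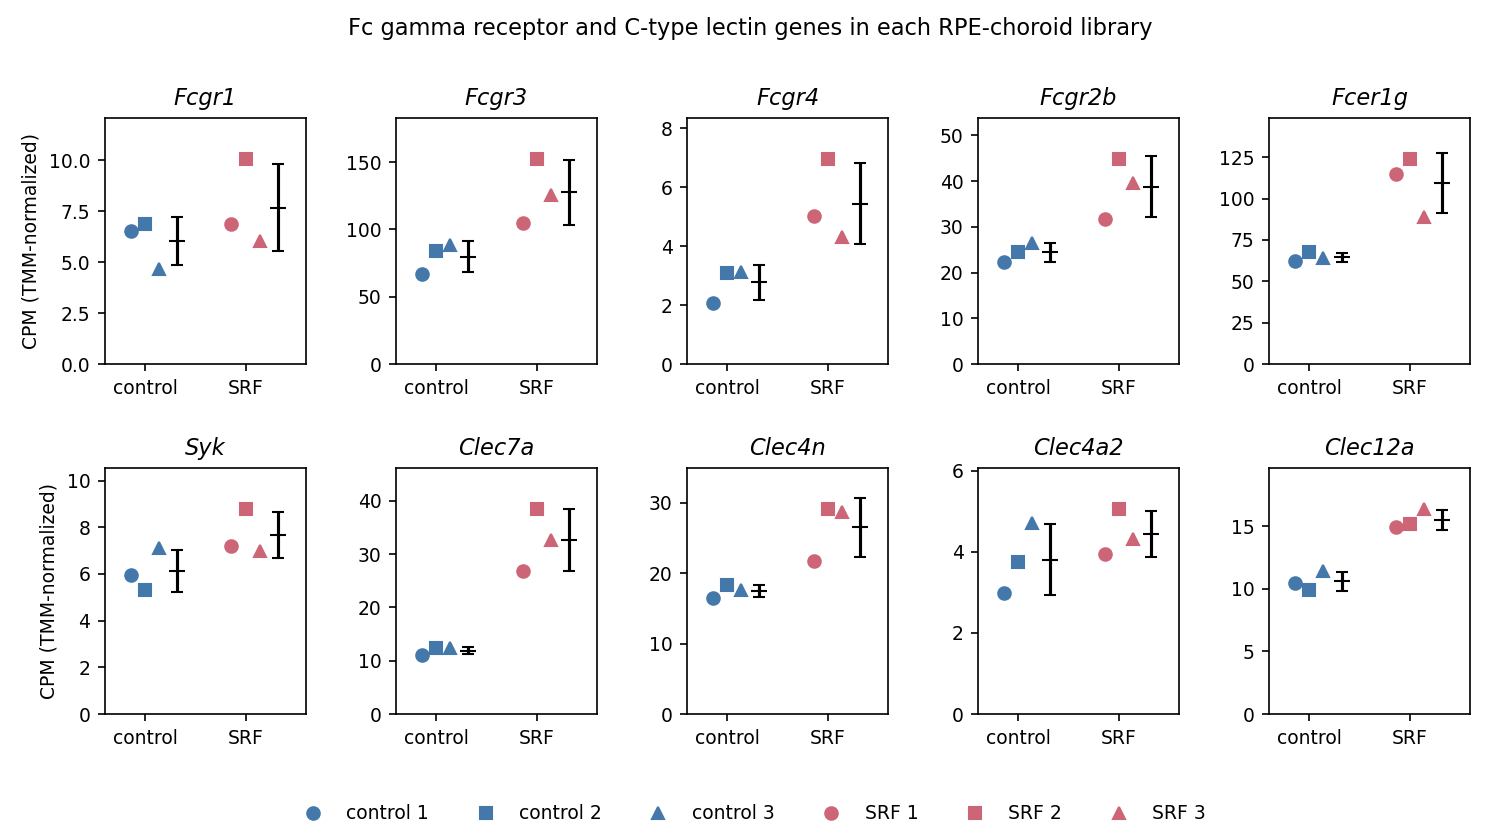
TMM-normalised CPM of each of the 10 genes (linear axis from 0) in the 3 control (blue) and 3 SRF (red) libraries, with the group mean and SD in black. In Fcgr3, Fcgr4, Fcgr2b, Fcer1g, Clec7a, Clec4n and Clec12a all 3 SRF points lie above all 3 control points, and in Fcgr1, Syk and Clec4a2 the groups overlap.

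The activating receptors were taken first. Fcgr3, the low-affinity receptor that binds complexed IgG on most myeloid cells, lies at chr1:171051174-171064935 on the minus strand (GRCm38, GENCODE M21). It read 66.9, 83.9 and 88.8 CPM in control 1, 2 and 3 and 105, 153 and 126 CPM in SRF 1, 2 and 3. The groups did not overlap, although the lowest SRF mouse was only 1.18 times the highest control mouse. The log2 fold change was 0.67 ± 0.18 (SE, n = 3 mice a group), with an edgeR unadjusted p of 0.00667 and an adjusted p of 0.413.

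Fcgr4, a receptor of intermediate affinity that is restricted to myeloid cells, lies at chr1:171018920-171029761 on the plus strand, between Fcgr2b and Fcgr3. It read 2.08, 3.09 and 3.13 CPM in the controls and 5.03, 6.96 and 4.31 CPM in SRF, so it was at a low level in every library. Its fold was the second highest of the 10 at 1.95, with a 95% interval from 1.15 to 3.33 (edgeR, adjusted p = 0.562). With so few reads that interval runs from a small difference to more than 3-fold.

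Fcgr1, the high-affinity receptor that binds monomeric IgG, stands alone on chr3:96282909-96293969, minus strand. It read 6.55, 6.89 and 4.67 CPM in control and 6.87, 10.1 and 6.05 CPM in SRF. The groups overlapped, and only SRF 2 lay above all controls. The 95% interval of its log2 fold change, from -0.34 to 1.03, holds both no difference and a 2.04-fold increase (edgeR, adjusted p = 0.947). Its FPKM has a weakness of its own. The transcript length implied by dividing CPM by FPKM ran from 1.496 to 2.59 kb between libraries, a range of 1.73-fold that only 1.51% of all genes reach. The cause of that variation was not tested.

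Fcgr2b, the inhibitory receptor, lies next to Fcgr4 at chr1:170958617-170976547 on the minus strand. It read 22.3, 24.5 and 26.4 CPM in control and 31.6, 44.9 and 39.7 CPM in SRF. SRF 2 was the highest library and the groups did not overlap. The log2 fold change was 0.66 ± 0.16 (SE), as large as that of Fcgr3 within the errors (edgeR, unadjusted p = 0.00411, adjusted p = 0.374). What makes this gene inhibitory is a short stretch near the end of its coding sequence. The 42 bases around it, at chr1:170961059-170961100 on the minus strand in transcript Fcgr2b-201, are shown with the codon of the ITIM tyrosine (residue 319) in capitals.
Fcgr2b ITIM: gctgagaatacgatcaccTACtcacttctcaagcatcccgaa

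Fcgr2b and Fcgr3 are close copies outside that tail, which matters for how their reads were counted. Their coding sequences were identical at 675 of 790 aligned bases (85.4%), against 62.8% to 66.5% for the other pairs among the 4 Fc gamma receptors. The longest run the 2 genes share is 129 coding bases, which crosses an intron in both, at chr1:170966674-170968081 in Fcgr2b and chr1:171054167-171057792 in Fcgr3. It is shown because a read from within it could have come from either gene.
Fcgr2b and Fcgr3 shared run: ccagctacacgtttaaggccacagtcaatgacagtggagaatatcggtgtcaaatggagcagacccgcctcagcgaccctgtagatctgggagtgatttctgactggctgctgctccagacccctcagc
Of all 50-base words in the coding transcripts of Fcgr3, 10.2% also occur in Fcgr2b, and 4.48% of those of Fcgr2b occur in Fcgr3. Fcgr1, Fcgr4, Fcer1g, Syk, Clec7a and Clec12a shared 0 such words with any other gene. The counts of Fcgr2b and Fcgr3 are therefore uncertain where the counting split shared reads, and Clec4a2 shares 6.69% of its words with other genes, most of them with Clec4a4.

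The balance between activating and inhibitory receptors was compared as the log2 ratio of FPKM (per length, so that different genes can be set against each other) to Fcgr2b in the same library. For Fcgr3 the ratio was 3.73, 4.33 and 4.32 in control and 4.24, 4.39 and 4.10 in SRF, so the activating gene read about as far above the inhibitory one in every mouse. The log2 ratio was 2.04 ± 0.12 (SD, n = 3) in control and 2.08 ± 0.05 in SRF, a difference of 0.04 (exact permutation test, two-sided, p = 0.8). For Fcgr4 the ratio to Fcgr2b was 0.124, 0.170 and 0.163 in control and 0.218, 0.214 and 0.150 in SRF. SRF 1 and SRF 2 were above the controls and SRF 3 was not, and the difference of 0.34 on the log2 scale had an exact permutation p of 0.3. For Fcgr1 the difference was -0.28, with an exact permutation p of 0.4. These sizes moved when 1 mouse was left out, with Fcgr1 between -0.55 (without SRF 2) and -0.12 (without SRF 1) and Fcgr4 between 0.20 (without control 1) and 0.52 (without SRF 3), and without control 1 and SRF 3 together the Fcgr1 difference was -0.04. With 1 added to each FPKM the Fcgr4 difference was 0.12. None of the 3 ratios separated the groups, the adjusted p-values over them were 0.8 for Fcgr3, 0.6 for Fcgr4 and 0.6 for Fcgr1, and the smallest p that 3 mice against 3 allow is 0.1.

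Fcer1g, the adaptor, lies at chr1:171229572-171234365 on the minus strand, in the same stretch of chromosome 1 as Fcgr2b, Fcgr4 and Fcgr3. It read 62.2, 67.5 and 64.0 CPM in control and 115, 124 and 89.1 CPM in SRF. The controls were close to each other, with an SD of 2.74 CPM, and SRF 3 was the lowest SRF mouse yet 1.32 times the highest control. The log2 fold change was 0.76 ± 0.14 (SE), with a 95% interval of the fold from 1.34 to 2.15 (edgeR, unadjusted p = 0.00119, adjusted p = 0.254). DESeq2 gave an adjusted p of 0.00176, so the gene rose by that test. The call was lost without SRF 2, where the DESeq2 adjusted p was 0.0785. The ITAM that the activating receptors and Dectin-2 share is shown as the 69 coding bases around it in transcript Fcer1g-201 (chr1:171229877-171230084, minus strand, with an intron in between), with the codons of its 2 tyrosines, residues 65 and 76, in capitals.
Fcer1g ITAM: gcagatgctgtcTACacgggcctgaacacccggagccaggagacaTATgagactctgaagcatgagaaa

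Syk, which binds the phosphorylated ITAM through its tandem SH2 domains, lies at chr13:52583173-52648792 on the plus strand. It read 5.96, 5.32 and 7.09 CPM in control and 7.19, 8.80 and 7.0 CPM in SRF. SRF 3 lay below control 3, so the groups overlapped. The log2 fold change was 0.32 ± 0.23 (SE), with a 95% interval from -0.22 to 0.86 (edgeR, adjusted p = 0.919). The kinase was thus not shown to differ, while an increase as large as that of the adaptor also lies within its interval.

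Clec7a, encoding Dectin-1, had the largest difference of the 10 genes. It lies at chr6:129461591-129472779 on the minus strand, and M21 types it as a polymorphic pseudogene, although it lists coding transcripts for it. It read 11.1, 12.3 and 12.3 CPM in control and 26.8, 38.5 and 32.7 CPM in SRF. The groups were far apart, with the lowest SRF mouse 2.17 times the highest control. The log2 fold change was 1.45 ± 0.17 (SE), a fold of 2.74 with a 95% interval from 2.09 to 3.60, and its edgeR p of 5.3e-05 ranked 5 among 13454 genes (adjusted p = 0.142). DESeq2 gave an adjusted p of 4.4e-08, and the gene rose by that test also with each mouse left out in turn. It is the only one of the 10 whose lower 95% limit was above 2-fold. Dectin-1 signals through a single tyrosine near its first residues, and the 36 bases around that codon (residue 15, in capitals), at chr6:129472620-129472655 on the minus strand, can be set beside the 2-tyrosine ITAM of Fcer1g.
Clec7a hemITAM: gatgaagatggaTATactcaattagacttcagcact

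Clec4n, encoding Dectin-2, lies at chr6:123229843-123247021 on the plus strand. It read 16.5, 18.3 and 17.6 CPM in control and 21.7, 29.2 and 28.7 CPM in SRF, with SRF 1 nearest to the controls. Its log2 fold change was 0.60 ± 0.15 (SE; edgeR, unadjusted p = 0.00597, adjusted p = 0.410). Its estimate was below that of Clec7a, and their 95% intervals, from 0.24 to 0.97 and from 1.06 to 1.85, did not meet.

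The inhibitory lectins were Clec12a and Clec4a2. Clec12a, which recognises uric acid crystals and restrains myeloid activation, lies at chr6:129342691-129365303 on the plus strand, not far from Clec7a. It read 10.5, 9.93 and 11.4 CPM in control and 14.9, 15.2 and 16.4 CPM in SRF, the tightest SRF group of the 10 genes in proportion to its mean. Its log2 fold change was 0.55 ± 0.15 (SE; edgeR, unadjusted p = 0.00869, adjusted p = 0.422). Clec4a2, encoding DCIR, lies at chr6:123106428-123143999 on the plus strand and read 2.98, 3.74 and 4.71 CPM in control and 3.95, 5.07 and 4.31 CPM in SRF. The groups overlapped, and the 95% interval of its log2 fold change ran from -0.48 to 0.91 (edgeR, adjusted p = 0.9999). Both proteins carry their ITIM within the first residues, and the first 42 coding bases of each, at chr6:129350421-129350462 and chr6:123123588-123123629, are shown with the codon of the tyrosine at residue 7 in capitals.
Clec12a ITIM: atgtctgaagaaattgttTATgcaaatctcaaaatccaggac
Clec4a2 ITIM: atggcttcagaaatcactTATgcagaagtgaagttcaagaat

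**Figure D2:**
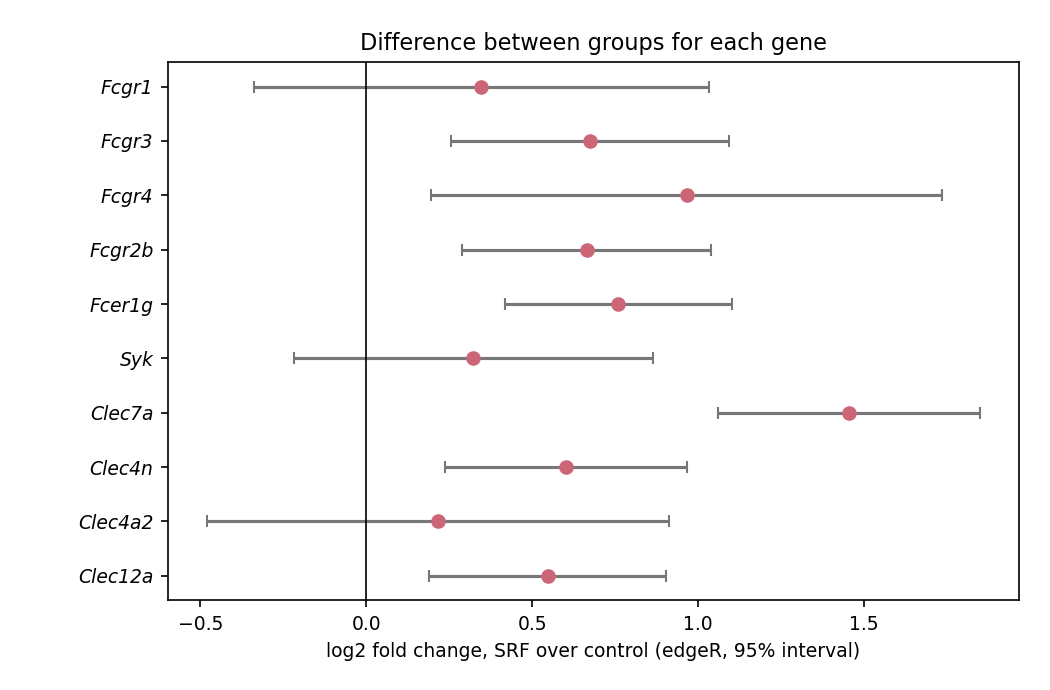
Log2 fold change of SRF over control for each of the 10 genes, with the 95% interval from edgeR, and a line at 0. The intervals of Fcgr1, Syk and Clec4a2 cross 0, and that of Clec7a, from 1.06 to 1.85, lies furthest from it.

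Set in order of FPKM, which allows levels of different genes to be compared, Fcer1g led in both groups with 93.9 ± 3.63 (SD, n = 3) in control and 165 ± 28.5 in SRF. Fcgr3 followed with 58.3 ± 8.38 and 96.4 ± 18.9. The adaptor and this receptor were thus well above the rest, and each lay above the next gene in all mice of a group. In control mice Clec4n (14.2) and Fcgr2b (14.1) came next and did not differ beyond their spread, followed by Clec7a at 8.02 ± 0.32, which was below both in every control mouse. In SRF mice Fcgr2b (22.7), Clec7a (22.6) and Clec4n (22.3) were level with each other and overlapped. Clec12a (4.16 in control, 6.29 in SRF), Clec4a2 (3.24 and 4.27), Fcgr1 (3.09 and 4.38) and Fcgr4 (2.16 and 4.39) formed a lower group. In control Clec4a2 overlapped both Clec12a and Fcgr1, which did not overlap each other. In SRF Fcgr4, Fcgr1 and Clec4a2 overlapped, and Fcgr1, which ran from 2.68 to 6.90, also overlapped Clec12a. Syk was lowest, at 1.17 ± 0.18 in control and 1.5 ± 0.20 in SRF.

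**Figure D3:**
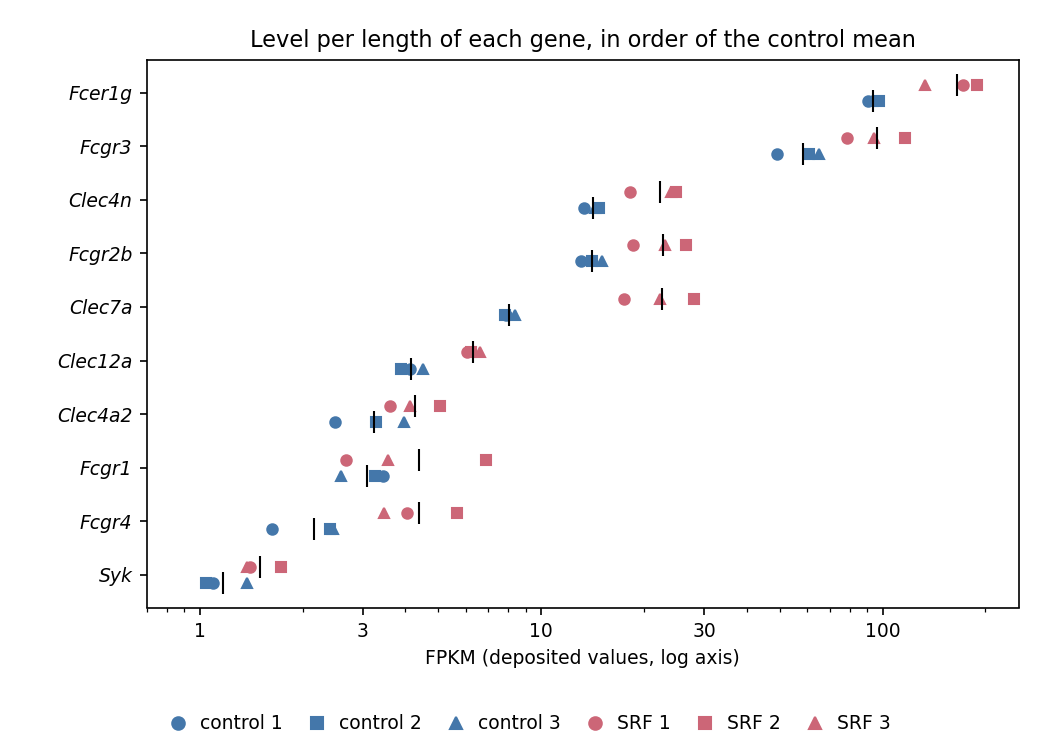
FPKM of the 10 genes on a log axis, ordered by the control mean, with each control (blue) and SRF (red) library as a point and the group mean as a black bar. Clec7a is the fifth gene in control, at a mean of 8.02, and lies level with Fcgr2b and Clec4n in SRF, at 22.6.

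Because these receptors sit on macrophages and related cells, each was also read against 12 other macrophage genes of the same library. That reference was itself higher in SRF, with a mean log2 CPM of 5.20 ± 0.18 (SD, n = 3) in control and 5.80 ± 0.15 in SRF, and the groups did not overlap. Over its 12 genes the median log2 fold change was 0.65, beside 0.63 over the 10 genes. Every SRF mouse was above every control mouse in 7 of the 12, against 6.71% of all tested genes. The reference genes did not move alike. The 4 with the smallest p were Lyz2, encoding lysozyme, with a log2 fold change of 1.49, the lysosomal gene Cd68 with 1.05, Spi1, encoding the myeloid factor PU.1, with 0.88 and Laptm5 with 0.88, and DESeq2 called these 4. Csf1r, Mertk and Itgam, named after their values were seen, had log2 fold changes of -0.03, -0.11 and 0.03. Mertk is also made by the RPE, and the summed CPM of the 12 genes ran from 1158 to 1497 in control and from 2719 to 4019 in SRF. Lyz2 supplied most of that sum, and without it the other 11 genes ran from 415 to 499.6 in control and from 615 to 714 in SRF, 1.40 times as high on average.

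Relative to that reference the groups of 7 of the 10 genes overlapped. Clec7a was 0.85 higher in SRF on the log2 scale (-1.52, -1.66 and -1.71 in control, -0.98, -0.70 and -0.67 in SRF) and Fcgr4 was 0.38 higher, and the groups did not overlap for either. Of all tested genes outside the reference, 0.454% were higher without overlap on this scale. Clec4a2 was at -3.42, -3.38 and -3.10 in control and -3.74, -3.63 and -3.59 in SRF, a difference of -0.35, again without overlap, but so were 55.5% of tested genes outside the reference. Each of these had an exact permutation p of 0.1, the smallest the design allows, and an adjusted p of 0.333 over the 10 genes. Fcgr3 (0.08), Fcgr2b (0.06), Fcer1g (0.15), Clec4n (0.00) and Clec12a (-0.04) differed by less than 0.2 and overlapped, and so did Fcgr1 and Syk at -0.26 and -0.27. The size depends on the reference. Against 5 of the 12 genes (Adgre1, Csf1r, Aif1, Ptprc and Mertk) Clec7a was 1.12 higher and Fcgr4 0.65 higher, both still without overlap. On that scale 6 of the 10 genes were higher without overlap and 0 lower, against 1.47% of tested genes outside the reference higher and 29.1% lower, and Clec4a2 was at -0.08 with overlap.

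**Figure D4:**
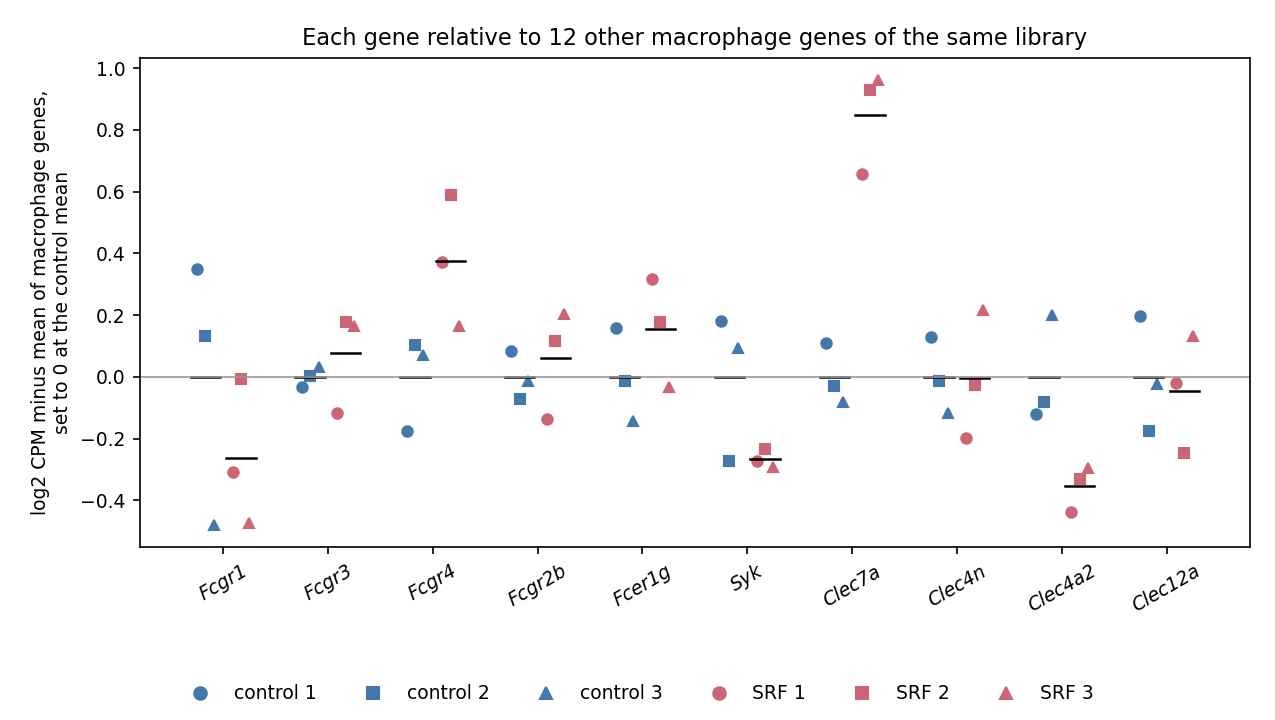
Log2 CPM of each gene minus the mean log2 CPM of 12 macrophage genes in the same library, shifted so that the control mean is 0, with control libraries in blue, SRF libraries in red and group means as black bars. Clec7a, at 0.85, is the furthest above 0, and the SRF points of Clec4a2 all lie below its control points.

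Other cells that carry these receptors were read through their markers. Of 6 mast cell genes tested, 4 were higher at an unadjusted p under 0.05, against 4.16% of all tested genes. These 4 were Tpsb2 (1.32 on the log2 scale), Cpa3 (0.94), Cma1 (1.27) and Mcpt4 (1.40), while Kit had 0.10 and Hdc -0.66. The summed CPM of the 7 listed mast cell genes was between 44.0 and 52.9 in control and between 66.9 and 73.7 in SRF. Fcer1a and Ms4a2, the other chains of the mast cell IgE receptor that also holds the FcR gamma chain, are not listed in the tables. Neutrophil genes summed to between 13.9 and 26.5 CPM in control and between 18.0 and 22.3 in SRF over 7 listed of 11, and Ly6g, Ngp, Mpo and Elane are not listed. Of the 4 tested, Csf3r had a log2 fold change of 0.90 (edgeR, unadjusted p = 0.0438), Cxcr2 0.42, Camp -0.15 and Ltf -0.88. Of the natural killer cell genes only Nkg7 was tested, with a log2 fold change of -0.99, and the list summed to between 9.82 and 11.8 CPM in control and between 6.38 and 8.13 in SRF. B cell genes, relevant because Fcgr2b is the Fc gamma receptor of B cells, summed to between 7.11 and 12.4 CPM in control and between 14.4 and 14.8 in SRF, with Cd22 at a log2 fold change of 1.51 and Cd79b at 0.31. Dendritic cell genes summed to between 55.2 and 62.0 CPM in control and between 67.3 and 82.5 in SRF, and of the 4 tested Itgax had 1.27, Irf8 0.54, Zbtb46 0.16 and Cd209a 0.17. RPE genes summed to between 51514 and 59344 CPM in control and between 36937 and 45948 in SRF. The part of these cells in the receptor differences was not tested.

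The partners upstream and downstream leaned the same way, to different degrees, and so did 10 of the 12 macrophage genes. Of the ITAM adaptors and their partner receptors other than Fcer1g, 4 of 14 were tested. Of these 4, 3 were higher at an unadjusted p under 0.05, against 4.16% of all tested genes. Tyrobp, encoding the adaptor DAP12, read 60.0, 67.6 and 64.2 CPM in control and 110, 132 and 91.4 CPM in SRF with a log2 fold change of 0.80 (DESeq2 adjusted p = 0.00176). Trem2, the lipid receptor that pairs with DAP12, had 1.13 (DESeq2 adjusted p = 0.000696), and Pira2, a paired immunoglobulin-like receptor that uses the FcR gamma chain, had 1.71 from a low level. Pira2 belongs to a family of near-identical copies, so its count is uncertain. Among the closest patterns to Fcer1g over the 6 libraries, by Pearson's r of log2 CPM in 10536 genes with a mean of at least 10 CPM, were Rab11fip5 (0.996), Tyrobp (0.994), Tcirg1 (0.992), Tjap1 (0.987) and Akt1 (0.986). These values describe 6 points in 2 groups, so each holds the difference between the groups.

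Of 28 tested genes that carry the signal from ITAM to Syk and onward, 6 were higher at an unadjusted p under 0.05 and 0 lower. Of all tested genes 4.16% were higher and 2.85% lower at that threshold. A positive estimate was found for 26 of the 28, against 50.3% of all tested genes, and the median log2 fold change was 0.40. Without overlap between groups, 9 were higher and 1 lower, against 6.71% and 6.43% of all tested genes. Lat2, an adaptor of myeloid and B cells, had 1.37 ± 0.29 (SE) and Vav1, an exchange factor for Rac, had 1.19 ± 0.26, and DESeq2 called both (adjusted p = 0.00711 and 0.0302). Nckap1l had 0.67 and Lcp2, encoding SLP-76, had 0.73. Of 13 tested ITIM phosphatases and brakes the median was 0.26. Against the same 4.16% of all tested genes, 2 of the 13 were higher at an unadjusted p under 0.05. These were Inpp5d, encoding the SHIP1 that Fcgr2b recruits, with 0.48 ± 0.18, and Ptprc, encoding CD45, with 0.42 ± 0.15. Neither was called by edgeR or DESeq2.

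Antibody RNA was read from 6 tested genes, the immunoglobulin constant genes with the joining chain. Only Ighg2c among them encodes an IgG heavy chain, the part that Fc gamma receptors bind. The other genes are no measure of that ligand, and IgG protein was not measured. Igkc, the kappa light chain, read 15.7, 9.49 and 6.97 CPM in control and 25.7, 31.6 and 25.4 CPM in SRF, a log2 fold change of 1.37 ± 0.30 (SE; DESeq2 adjusted p = 0.00271). Igha, the IgA heavy chain, had 1.45 ± 0.47 and Ighm, the IgM heavy chain, 0.33 ± 0.15. Ighg2c, the only IgG heavy chain tested, read 4.84, 1.84 and 0.960 CPM in control and 0.487, 13.3 and 7.06 CPM in SRF. SRF 1 was thus below every control mouse and SRF 2 above them all, and its log2 fold change of 1.47 had a standard error of 1.05. Jchain (0.96 ± 0.52) and Ighd (0.26 ± 0.37) overlapped between groups as well. Ighg1, Ighg2b and Ighg3 are not listed, so IgG heavy chain RNA was read from a single variable gene.

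Relatives of the 10 genes were read in 3 lists. Of 4 other Fc receptor genes tested, Fcrls, a microglial gene, had 0.78 ± 0.17 (SE; DESeq2 adjusted p = 0.0356), while Fcgrt, encoding the neonatal Fc receptor, had 0.25, Fcrl1 0.22 and Trim21 -0.02. Of 4 other tested lectins of the Dectin-1 and Dectin-2 gene clusters, Clec4d, which pairs with the FcR gamma chain, had 1.10 ± 0.31 (edgeR, unadjusted p = 0.00903), while Clec4a3 had 0.18, Clec4a1 0.10 and Clec1a -0.15. Of 14 further C-type lectins tested, 0 had an unadjusted p under 0.05 in edgeR, against 4.16% of all tested genes higher and 2.85% lower. A positive estimate was found for 13 of the 14, against 50.3% of all tested genes, and the median was 0.19. Mrc1, the mannose receptor, was at 0.30, Colec12 at 0.39, Cd72 at 0.39 and Clec11a at 0.73.

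**Figure D5:**
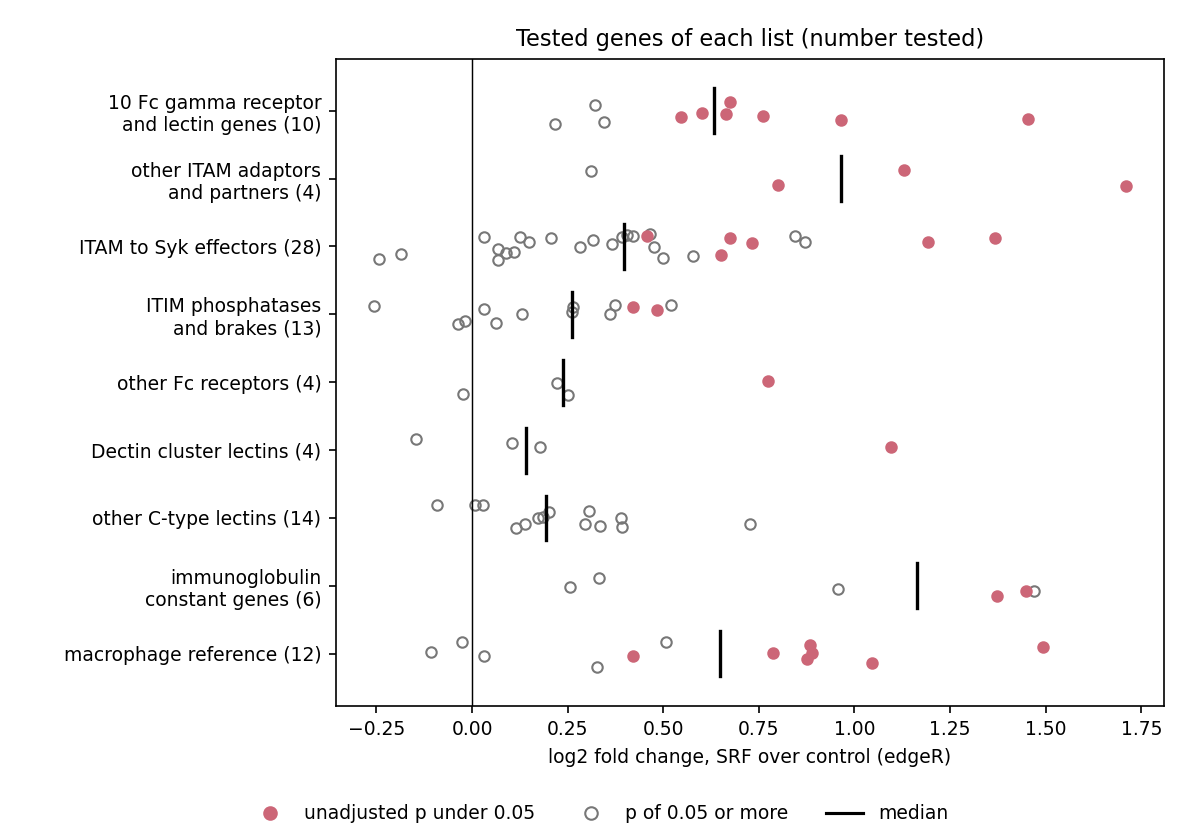
Log2 fold change of SRF over control for every tested gene of 9 lists, filled where the unadjusted edgeR p was under 0.05, with the median of each list as a black bar. The 10 Fc gamma receptor and lectin genes have a median of 0.63 and the macrophage reference 0.65. The other ITAM adaptors and partners have 0.96 and the immunoglobulin genes 1.16. Lower medians are those of the ITAM to Syk effectors (0.40), ITIM brakes (0.26), other Fc receptors (0.24), other C-type lectins (0.19) and Dectin cluster lectins (0.14).

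The promoters were searched because 7 of the genes were higher together, and Spi1, which encodes PU.1, was higher as well. The 6 letters GAGGAA at the core of many PU.1 sites were sought on both strands in the window from 250 bases before to 50 after each RefSeq start (GRCm38.p6). The window was present for 9 of the 10 genes (not for Clec4n), and 6 of these 9 held the letters, against 31.3% of 27025 genes with a window and 30.8% of the tested ones. All 7 matches lay before the start and are shown with the 6 letters in capitals, as read on the strand of the gene, and those of Fcgr3, Clec12a and Syk lie at RefSeq starts inside the span that M21 gives the gene.
Fcgr1 (chr3:96294007-96294036, minus strand, 55 bases before the start): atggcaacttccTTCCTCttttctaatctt
Fcgr3 (chr1:171059404-171059421, minus strand, 6 bases before the start): gagtccatttccTTCCTC
Fcgr4 (chr1:171018892-171018921, plus strand, 22 bases before the start): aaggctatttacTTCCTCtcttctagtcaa
Clec7a (chr6:129472858-129472887, minus strand, 96 bases before the start): aaacaggatctaGAGGAAaaaagggaaatt
Clec12a (chr6:129350171-129350200, plus strand, 61 bases before the start): aggaagaaatatGAGGAAgaaaagtgttcc
Clec12a, second match (chr6:129350185-129350214, plus strand, 47 bases before the start): ggaagaaaagtgTTCCTCtttcaatcttat
Syk (chr13:52596861-52596881, plus strand, 9 bases before the start): tgctgacactttGAGGAAaag
The windows of Fcgr2b, Fcer1g and Clec4a2 held none. The groups overlapped for Fcgr1 and Syk, which hold the letters, and did not for Fcer1g and Fcgr2b, which lack them. The letters are a description of these windows and no measurement of binding. Whether PU.1 has a part in the differences between groups was not tested.

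Results that rest on control 1 and SRF 3, the libraries rich in photoreceptor RNA, were read again without both. Clec7a then had a log2 fold change of 1.41 and Fcer1g 0.86, and edgeR called these 2 of the 10 genes (adjusted p = 0.0193 and 0.0206), beside 1.14% of all tested genes and 0.825% higher. The median over the 10 genes was 0.57.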

How the data were processed

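RNA-seq counts and FPKM of RPE-choroid from 3 control and 3 SRF mice were analysed. The authors trimmed the reads, mapped them and counted them with StringTie, and deposited whole-number counts per gene without normalisation. The authors also deposited FPKM, scaled by transcript length and library. The aligner, genome build and strand setting are not given in the sources used here. GRCm38 with GENCODE M21 was used because 15659 of 15663 identifiers matched.

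Genes with over 50 counts in at least 2 libraries were tested with edgeR 4.0.16 (R 4.3.3; TMM, glmQLFit, glmQLFTest, older quasi-likelihood form, the installed default, group as the only term), after a test on simulated data, with Benjamini-Hochberg adjustment over 13454 genes. Standard errors are the log2 fold change over the root of F. FPKM ratios and differences from the macrophage genes were tested by exact permutation, two-sided. DESeq2 1.42.0, limma 3.58.1, FPKM, other filters, a block and left-out libraries were alternatives. At these depths 3 counts are 0.123 to 0.220 CPM. Samples with the same number are different mice. Coding bases came from M21 transcripts and promoters from RefSeq.

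The 10 genes and the lists were chosen with earlier results of these data known, and Clec7a and Fcer1g also stand in the study's own list, made on these counts. Named are all 10 genes, up to 4 genes of smallest p per list, all tested immunoglobulin genes and the 5 genes closest to Fcer1g.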

Additional observations from a re-analysis of the deposited data

How the results depend on the processing

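Every one of the 10 genes kept a positive log2 fold change under all 23 alternatives, from 1.31 to 1.58 for Clec7a, from 0.65 to 0.89 for Fcer1g and from 0.10 to 0.56 for Fcgr1. The number called moved with the test. It was 0 in every edgeR and limma fit on all libraries and in edgeR with each mouse left out in turn. Those fits called only 0% to 0.0372% of all tested genes, so their 0 says little about these genes. The number was 2 with DESeq2, and 2 with edgeR when both libraries richest in photoreceptor RNA were left out. Each of these stands beside 1.14% of all tested genes. DESeq2 with each mouse left out, chosen after seeing the data, called 1 to 5, beside 0.498% to 2.68% of all tested genes. Without SRF 2 it called only Clec7a (0.498% of all), and without SRF 1 it called 5 (1.14% of all), Clec4n, Fcgr2b and Fcgr3 being added (adjusted p = 0.0118, 0.00643 and 0.0167). The cause was not tested. With the replicate block 0 were called, 7 were higher at an unadjusted p under 0.05 (5.0% of all) and the median was 0.62, and the block changed no call. Libraries of the same number come from different mice, and their deviations from the group mean correlated at -0.48, 0.47 and -0.31. Whether they share a batch cannot be told from these values. Genes without overlap relative to the macrophage genes were 3 of 10, with Clec7a and Fcgr4 higher and Clec4a2 lower. Of tested genes outside the reference, 0.454% were higher and 55.5% lower. With 5 reference genes 6 were higher and 0 lower, against 1.47% and 29.1%. With each mouse left out 3 to 5 did not overlap in either direction (5 without SRF 1), against 56.8% to 70.8%. The fewest counts of the 10 genes were 28, for Fcgr4 in control 1.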
